A study of Homo sapiens with 2 samples.

Results

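The EGFR family receptors and their ligands were described in HSC-3 cells, an established line from a human squamous cell carcinoma of the tongue, grown on plastic or on Myogel, a gelatinous matrix prepared from human uterine leiomyoma tissue. The group was set by gene name and holds 10 genes, of which 3 are receptors (EGFR, ERBB2 and ERBB3) and 7 are ligands (AREG, EREG, HBEGF, TGFA, BTC, EPGN and NRG1). Every probe set that the array annotation assigns to exactly 1 of these symbols was used, which gave 34 probe sets of 54613 for 8 genes, out of 19775 genes with such a probe set. No probe set was named AREG or EPGN in this way, and these 2 ligands were not analysed here.

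The cells on both surfaces were the same line, labelled with a red fluorescent protein through lentiviral particles that hold a non-coding control sequence and then selected with puromycin, and both were kept in medium with serum and hydrocortisone. For each surface 90000 cells were seeded. The next day the RNA of 3 wells was taken and combined in equal parts, and each pool was read on its own U133 Plus 2.0 array from Affymetrix. All ratios below thus come from 2 arrays. No difference has a replicate check and no p-value is given, since pooling hides the spread between wells and probe sets are not replicates of a surface.

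The receptors of this family are tyrosine kinases of the cell membrane that pair when a ligand binds and then signal through the RAS and ERK kinases, through PI3K and AKT, and through STAT3. The ligands are made as membrane-bound precursors and are released by proteases of the ADAM family, so that a cell can stimulate itself and its neighbours. Squamous epithelia and the carcinomas that arise from them are known for high levels of EGFR and for making several of its ligands themselves.

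Among 20 member probe sets whose signal was not below the array median, 19 stayed within a fold change (FC) of 1.5, 0 were higher on Myogel and 1, of NRG1, was lower. Of all probe sets with such signals 3.46% were higher and 7.88% lower, so that most of the array stayed within FC 1.5 there as well. EREG, the gene of epiregulin, had the highest FC among the brightest probe sets of the genes, 1.30-fold higher on Myogel, followed by HBEGF with 1.18-fold. EGFR itself had 8012 on plastic and 8411 on Myogel in its brightest probe set. Apart from that probe set of NRG1, the ratios past FC 1.5, in both directions, belonged to probe sets below the median signal.

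The values are linear intensities made by the authors with dChip, and FC divides the value on Myogel by that on plastic, as deposited. The median over all probe sets was 59.7 on plastic and 52.5 on Myogel, and the median log2 FC was -0.11. Values of 1 are the floor of the table. The spread of the ratio depended on signal, and each log2 FC is therefore set beside a central range, in which 95% of the log2 FCs of 1000 neighbours by mean log2 value lay, which leaves 5% of probe sets outside by construction. Of 8 markers of squamous epithelium, 5 had a named probe set (KRT5, KRT14, DSG3, SFN and CDH1), with values between 1595 and 18856 on plastic and between 1169 and 18224 on Myogel. Markers of smooth muscle, the tissue that Myogel is made from, summed to 648 on plastic and 630 on Myogel over 6 genes. Higher on Myogel were ACTG2 with 240 and 272, DES with 43.0 and 63.5 and LMOD1 with 14.3 and 30.9. Lower were MYH11 with 198 and 174, SMTN with 136 and 88.4 and CNN1 with 17.6 and the floor of 1. The summed values were 709 and 711 for 6 fibroblast markers, 332 and 271 for 5 endothelial markers and 605 and 599 for 4 blood markers.

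**Figure D1:**
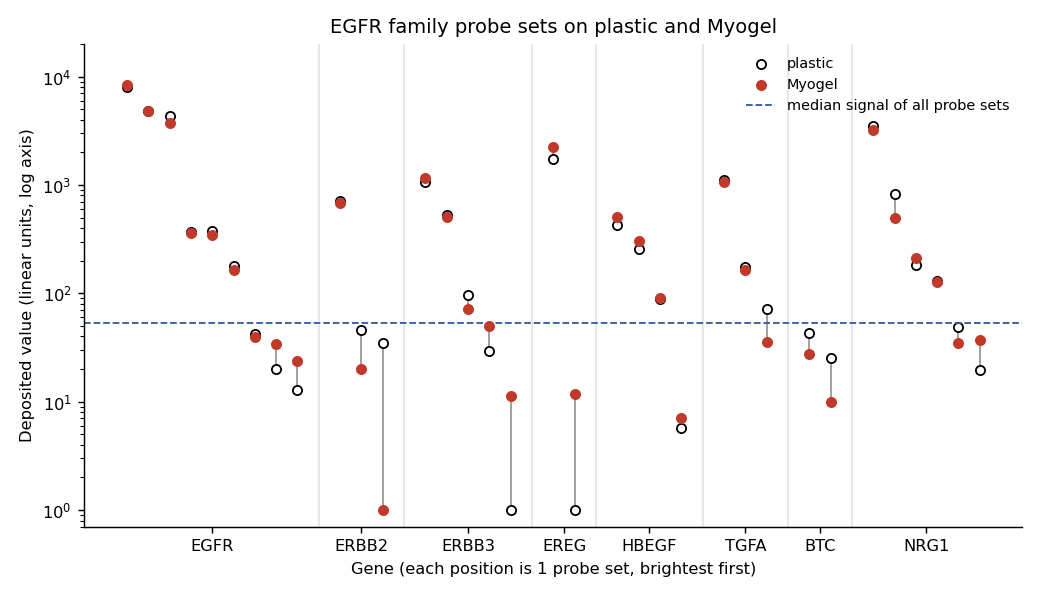
Deposited values (y axis, linear units on a log scale) of the 34 probe sets of 8 genes on plastic (open circles) and on Myogel (red circles), each position being 1 probe set and the brightest of each gene standing first. Above the dashed line, the median signal of all probe sets at 53.8, the circles of a probe set lie close together, while the widest gaps are below it and 3 probe sets have a value of 1 on 1 array.

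Over the 34 member probe sets, FC on Myogel reached 1.5 upwards in 6 and downwards in 6, and 22 stayed between. Among those that passed, 3 had the floor of 1 on 1 array, upwards in EREG and ERBB3 and downwards in ERBB2, and the size of their FC is set by the floor. Over all probe sets the shares were 13.8% higher and 24.2% lower without regard to signal. At or above the median signal, 0 of 20 were higher and 1 was lower, where 3.46% and 7.88% of all such probe sets were. Below it, 6 of 14 were higher and 5 were lower, where 24.2% and 40.5% of all such probe sets were. When each gene was represented by its brightest probe set, 0 of 8 genes were higher and 1, BTC, was lower, beside 9.71% and 17.5% of all genes. The median log2 FC of these 8 genes was 0.02, and that of all genes was -0.07.

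Of the 34 probe sets, 32 lay inside the range for their signal. The exceptions were the brightest probe set of EREG, on the higher side, and 1 probe set of NRG1, on the lower side. Since the range leaves 5% of probe sets outside by construction, the share of members outside it was near that of any probe sets.

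**Figure D2:**
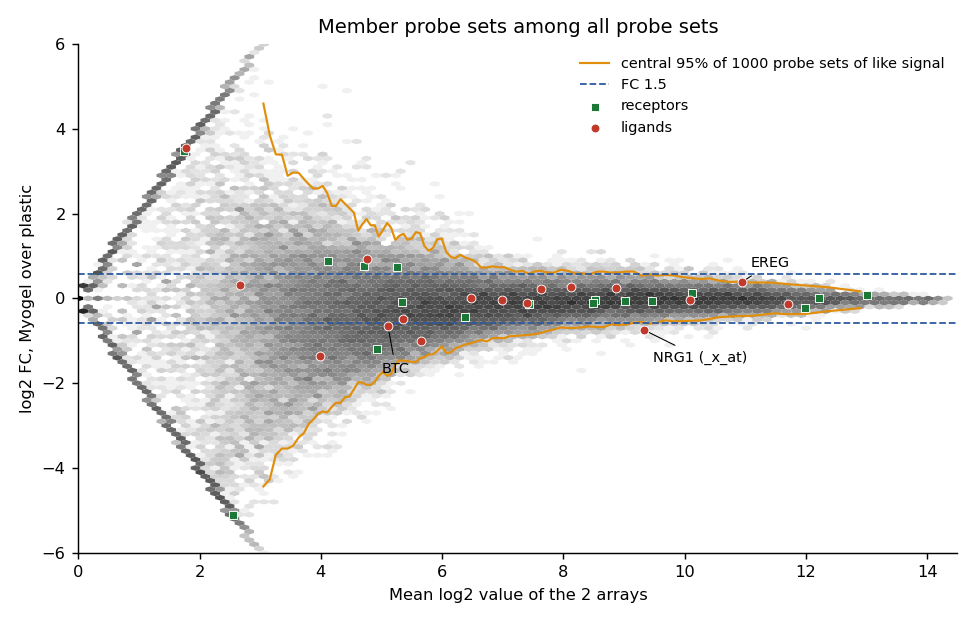
Log2 ratio between Myogel and plastic, positive when higher on Myogel (y axis), against the mean log2 value of the 2 arrays (x axis) for all probe sets that are not controls (grey hexagons, darker where there are more, cut at -6 and 6). Green squares are receptor probe sets and red circles ligand probe sets; orange lines enclose 95% of probe sets in windows of 1000 of like signal, drawn from a mean log2 value of 3 upwards, and dashed lines mark FC 1.5. Where these lines are drawn, EREG and 1 probe set of NRG1 are the members beyond them, by little for EREG.

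EGFR, the receptor of EREG, HBEGF, TGFA, BTC, AREG and EPGN, was measured by 9 probe sets, more than any other member. The brightest had 8012 on plastic and 8411 on Myogel, a log2 FC of 0.07, inside the range of -0.27 to 0.17. The next had 4777 and 4770, and the third had 4375 and 3758, a log2 FC of -0.22 that was inside its range of -0.36 to 0.30. Each of these 3 signals lay above at least 96.7% of the probe sets on its array. A further 3 probe sets had values between 165 and 372, all with lower values on Myogel and log2 FCs between -0.13 and -0.04. The directions of 2 of these, and of the probe set with 4777 and 4770, turned under at least 1 other scaling of the arrays. The last 3 were below the median signal. They had 41.8 and 39.2, 20.1 and 34.0, and 12.7 and 23.6, so that the last 2 were 1.69-fold and 1.86-fold higher on Myogel while 54.8% and 62.6% of the probe sets of like signal also passed FC 1.5 in either direction. Bright probe sets of EGFR thus went slightly both ways and none passed FC 1.2.

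ERBB2 has no known ligand of its own and acts as the preferred partner of the other receptors. Its brightest probe set had 716 on plastic and 688 on Myogel, a log2 FC of -0.06, which became 0.05 when the median log2 FC of the arrays was set to 0. Its other 2 probe sets were dim. They had 46.3 and 20.2, and 34.5 and the floor of 1. Both passed FC 1.5 downwards, while 49.0% and 84.2% of the probe sets nearest in signal passed this limit in either direction.

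ERBB3 binds neuregulins, has little kinase activity of its own and links the family to PI3K. Its brightest probe set had 1072 on plastic and 1164 on Myogel, a log2 FC of 0.12 inside the range of -0.51 to 0.48. The second had 529 and 509, a log2 FC of -0.05 that became 0.05 after median centring, and the third had 96.7 and 70.9, a log2 FC of -0.45. The 2 dim ones were higher on Myogel, with 29.6 and 49.6, and with the floor of 1 and 11.2. All 17 receptor probe sets, bright and dim, fell within the 95% ranges of like probe sets.

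The promoters of EREG, HBEGF and BTC are shown. EREG and HBEGF were the ligands with higher values on Myogel in every probe set. BTC was the only member past FC 1.5 in its brightest probe set. All probe sets of HBEGF and BTC lay inside the ranges for their signals. The sequences are from RefSeq (GRCh38.p14), which gave promoters for 8 of the 10 members and none for ERBB3 and NRG1. NRG1, with the only member probe set past FC 1.5 at or above the median signal, could thus not be shown. Each line holds the 250 bases before the start of the gene, 5′ to 3′ on the strand of the gene, with a TATA box (TATAAA) in capitals. EREG is on the plus strand at chr4:74364895-74365144, HBEGF on the minus strand at chr5:140346604-140346853 and BTC on the minus strand at chr4:74794524-74794773.
EREG: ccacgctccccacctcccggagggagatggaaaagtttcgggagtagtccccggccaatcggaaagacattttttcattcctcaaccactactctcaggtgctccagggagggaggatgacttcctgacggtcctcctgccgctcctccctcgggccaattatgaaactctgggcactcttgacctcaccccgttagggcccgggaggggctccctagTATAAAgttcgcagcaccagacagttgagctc
HBEGF: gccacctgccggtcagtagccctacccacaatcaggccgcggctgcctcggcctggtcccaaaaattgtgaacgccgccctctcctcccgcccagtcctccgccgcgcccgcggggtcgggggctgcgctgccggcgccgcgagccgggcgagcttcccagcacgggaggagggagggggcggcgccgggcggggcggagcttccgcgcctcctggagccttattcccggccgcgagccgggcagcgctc
BTC: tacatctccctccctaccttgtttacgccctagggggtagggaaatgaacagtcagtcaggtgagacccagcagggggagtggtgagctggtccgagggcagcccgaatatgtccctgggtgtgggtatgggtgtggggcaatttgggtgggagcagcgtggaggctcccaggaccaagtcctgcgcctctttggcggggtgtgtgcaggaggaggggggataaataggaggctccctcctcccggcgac

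EREG has a TATA box that begins at position -32 from its start, whereas HBEGF and BTC have no match to these letters here. In windows of 300 bases, which add the first 50 bases of the transcript, the neighbours EPGN and AREG also hold one, each at position -29, and the second of 2 EGFR windows holds a pair, at positions -146 and -36. TATAAA on the strand of the gene was found in 7.33% of 35093 promoters of the same length. EPGN, EREG, AREG and BTC follow each other on chromosome 4 with no other protein-coding gene between them. The GC content was 57.7% for EREG, 75.0% for HBEGF and 63.0% for BTC, beside a median of 58.7% over all promoters.

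Motifs of transcription factors of the early response were searched on both strands of the same windows. The AP-1 motif (TGAGTCA or TGACTCA) was present in 4.95% of all promoters and, among the members, in the second of 2 windows of EGFR, at positions -232 and -136 from that start. Each form of this motif is the complement of the other, so that a site matches on both strands. The cyclic AMP response element (TGACGTCA), present in 1.85% of all promoters, was found for AREG alone, at position -65. The EGR1 motif (GCGTGGGCG or GCGGGGGCG) and the CArG box of SRF, present in 5.76% and 1.29% of all promoters, had no match in the 10 windows of the members. These matches describe letters and not binding.

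Among the ligands, EREG and HBEGF had higher values on Myogel in each of their probe sets. EREG encodes epiregulin, a ligand of EGFR and ERBB4 that is made by keratinocytes and many carcinomas. Its brightest probe set had 1725 on plastic and 2250 on Myogel, a difference of 525 units and a log2 FC of 0.38, just outside the range of -0.42 to 0.36. Of the 1000 probe sets nearest in signal, 1.2% passed FC 1.5, and EREG did not. Each of the 3 other scalings raised the log2 FC of every member probe set, so that a positive value could not turn. Under them EREG had between 0.40 and 0.49. Its other probe set had the floor of 1 on plastic and 11.7 on Myogel, so that it passed FC 1.5 while the size of its fold is set by the floor.

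HBEGF encodes heparin-binding EGF, which binds heparan sulfate as well as EGFR and ERBB4. Its probe sets had 431 and 510, 255 and 306, and 89.0 and 89.8 on plastic and Myogel, with log2 FCs of 0.24, 0.27 and 0.01. The dimmest had 5.71 and 7.09. All 4 were thus higher on Myogel, but each lay inside the range for its signal, which was -0.63 to 0.61 for the brightest. They stayed higher under the 3 other scalings, which raised the log2 FC of every member probe set and could not turn a positive one. No other member with more than 2 probe sets had the same sign throughout, apart from ERBB2 and TGFA, whose 3 values each were lower on Myogel, with a sign that turned in the brightest after median centring.

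TGFA encodes transforming growth factor alpha, a ligand of EGFR that squamous cells use in autocrine growth. Its brightest probe set had 1103 on plastic and 1076 on Myogel and the next had 175 and 163, with log2 FCs of -0.04 and -0.10, which were 0.07 and 0.00 after median centring. The dimmest, with a mean signal just under the median, had 71.3 and 35.7, a log2 FC of -1.0 inside the range of -1.41 to 1.43. BTC encodes betacellulin, which binds EGFR and ERBB4. It was the only member whose brightest probe set passed FC 1.5, with 43.2 on plastic and 27.5 on Myogel, 1.58-fold lower, and its other probe set had 25.5 and 9.95. Both signals were below the median, and 50.1% and 65.2% of the probe sets of like signal passed FC 1.5. The log2 FC of the first, -0.66, was -0.38 after quantile normalization, -0.34 after loess centring and -0.55 after median centring, and under none of these did it pass.

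NRG1 encodes neuregulin 1, which binds ERBB3 and ERBB4 and is made in many isoforms from different starts and exons. Its 6 probe sets are annotated from several transcript records and did not move as one. The brightest had 3474 on plastic and 3192 on Myogel, a log2 FC of -0.12 inside the range of -0.37 to 0.35. The second, an _x_at probe set whose probes can match further transcripts, had 827 and 495. This difference of 332 units and 1.67-fold was outside the range of -0.55 to 0.55, and 4.10% of the probe sets of like signal passed FC 1.5. The third went the other way with 183 and 214, and the fourth had 129 and 126. The 2 dim ones had 48.8 and 34.6, and 19.7 and 37.4. The _x_at probe set was the only one of the family that passed FC 1.5 and a difference of 100 units together, while the other 3 NRG1 probe sets with signals above the median stayed within FC 1.5. Which transcripts it measured was not tested.

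**Figure D3:**
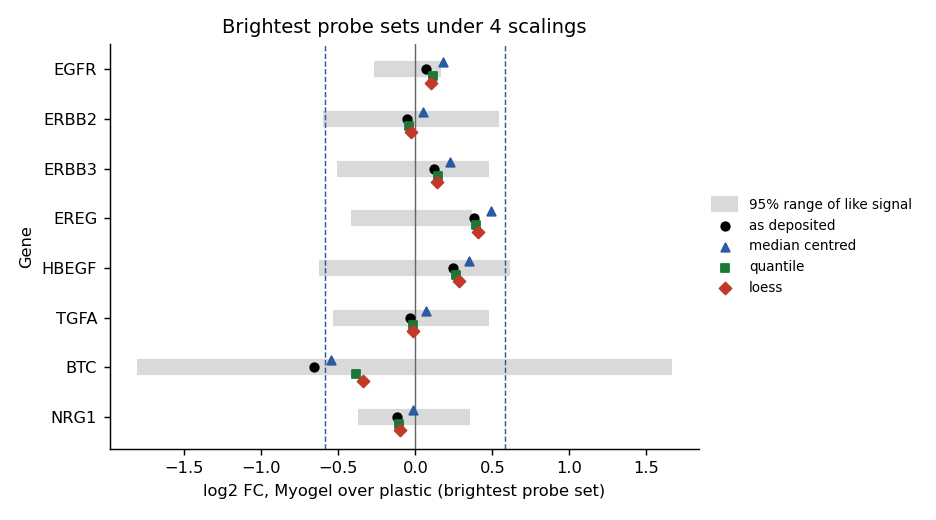
Log2 FC of Myogel over plastic (x axis) for the brightest probe set of each gene (y axis), as deposited (black circles) and after median centring (blue triangles), quantile normalization (green squares) and loess centring (red diamonds). Grey bars give the range of 95% of probe sets of like signal as deposited and dashed lines FC 1.5. EREG lies at the upper edge of its bar, BTC passes the dashed line only as deposited, and ERBB2 and TGFA change side of 0 after median centring.

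Of the 8 genes, 6 kept the sign of their brightest probe set under the 3 other scalings, and 25 of the 34 probe sets did. Since these scalings raised the log2 FC of every member probe set, only negative values could turn. The remaining receptor of the family, ERBB4, and 4 further ligands complete it. ERBB4 had 46.5 on plastic and 85.8 on Myogel in its brightest probe set, 1.85-fold higher and inside the range of -1.16 to 1.44, and its 4 probe sets had log2 FCs between -0.66 and 0.88. EGF had 2.95 and 6.43, NRG3 had 2.59 and the floor of 1, and NRG4 had 12.8 and 5.78. NRG2 had 85.3 and 82.7. These 5 genes had signals of 85.8 or less on both arrays, and each lay inside the range for its signal.

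Beyond the receptors and ligands, 6 lists cover the rest of the pathway, the 5 family genes above among them. They held 77 measured genes, and FC reached 1.5 upwards on Myogel in 3 of them, downwards in 2 and in neither direction in 72. Among all genes 9.71% were higher and 17.5% lower. Most of the 77 had signals at or above the median, where 3.46% of all probe sets were higher and 7.88% lower. The counts of single lists below are also to be read against these shares. Their median log2 FC was 0.01, beside -0.07 over all genes. With FC 1.2 or more, 13 of them were higher and 8 were lower, beside 18.1% and 30.8% of all genes, dim ones included.

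Of the 10 genes for ligand release, that is ADAM proteases, the protease BACE1, which cleaves neuregulins, and the regulators RHBDF1, RHBDF2 and FRMD8 of ADAM17, 0 passed FC 1.5 and the median log2 FC was 0.17. RHBDF2, a rhomboid-like partner of ADAM17, had the largest difference at or above the median signal, with 97.4 on plastic and a log2 FC of 0.45. ADAM17, the main protease for TGFA, AREG and HBEGF, had 2093 and 1973, and ADAM10, which releases BTC and EGF, had 4204 and 3909. These 2 were singled out after their values were seen, and both lay inside their ranges.

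The RAS-ERK cascade had 16 measured genes and a median log2 FC of -0.02. The only one past FC 1.5 was NF1, a negative regulator of RAS, in 1 dim probe set with 12.2 on plastic and 23.4 on Myogel. NF1 is outside the naming rule and was picked with its values in view. KSR1, a scaffold of the cascade, had the largest difference at or above the median signal, with 197 and 152, while its 4 probe sets ran from -0.37 to 2.83. In the list for the PI3K, PLC and STAT arms 0 of 11 genes passed FC 1.5, and the median log2 FC was 0.16. JAK1, a kinase upstream of STAT3, had 1763 on plastic and 2383 on Myogel, and its log2 FC of 0.44 was outside the range of -0.41 to 0.38, while its 5 probe sets ran from -0.72 to 0.44.

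Inhibitors and ubiquitin ligases of the receptors likewise had 0 of 17 genes past FC 1.5, with a median log2 FC of -0.01. CBLC, an epithelial ligase of the CBL family that marks EGFR for breakdown, had the largest difference, with 300 on plastic and 210 on Myogel, a log2 FC of -0.52 inside the range of -0.68 to 0.70, and its other probe set went the other way. ERRFI1, a feedback inhibitor that binds the EGFR kinase domain, had 2205 and 2363, and was likewise picked with its values in view. In the list for endocytosis and recycling 0 of 18 genes passed, and the median log2 FC was 0.08. AP2A1, a subunit of the clathrin adaptor, had the largest difference, with 66.8 on plastic and 88.6 on Myogel. Its 4 probe sets had log2 FCs from -0.62 to 7.25. The highest of these came from a probe set below the median signal, since no probe set at or above it exceeded 6.59.

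**Figure D4:**
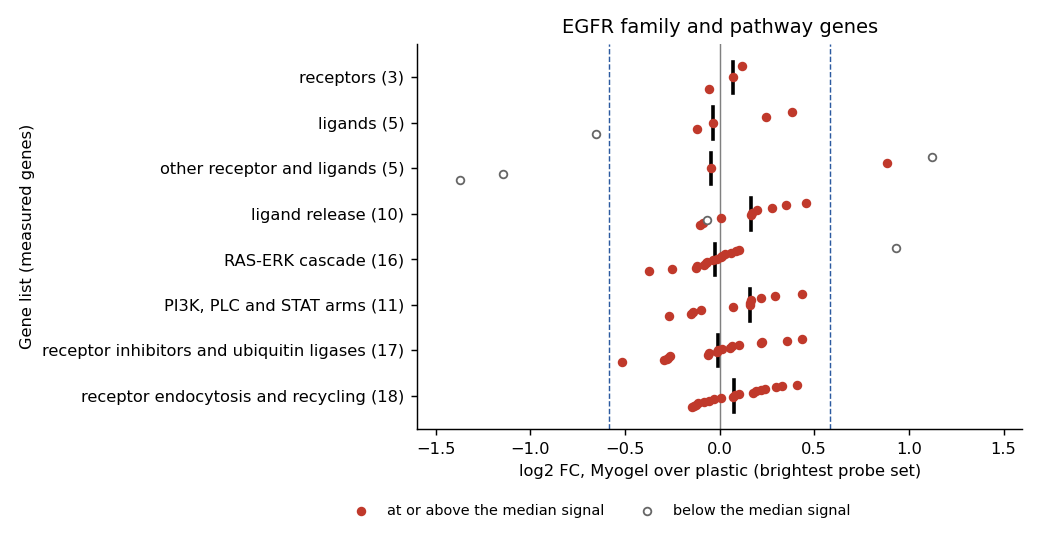
Log2 FC of Myogel over plastic (x axis) of each measured gene, by its brightest probe set, in the receptor, ligand and 6 pathway lists (y axis, with the number of measured genes). Filled circles are at or above the median signal and open circles below it, black bars are list medians and dashed lines mark FC 1.5. The points beyond the dashed lines are BTC, ERBB4, EGF, NRG3, NRG4 and NF1, and ERBB4 is the only filled one.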

How the data were processed

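RNA of HSC-3 cells on plastic and on Myogel was measured on 1 array each, assigned by sample title; a protocol label names uncoated plates for both samples, which the titles, the source names and the methods contradict for Myogel. The authors deposited linear intensity values that dChip had computed from the array scans, while for the dChip version, its model and any scaling between the arrays nothing is given in the sources used. The 54675 rows include 62 controls, which were left out, and both value columns were used. Fold change was Myogel over plastic, with a limit of FC 1.5 and no further scaling. The study names this limit, and whether its own list also rested on a filter is not stated in the sources used, so that the counts here need not be those of that list. With a difference of 100 linear units as well, 0.65% of probe sets were higher and 0.916% lower, in place of 13.8% and 24.2%. Names came from the array annotation, updated by Entrez identifier through RefSeq (GRCh38.p14): 41091 probe sets had 1 symbol, 1801 had several and 11721 are unnamed here. Each gene was read from its brightest probe set by mean log2 value, and no detection calls were used. For arrays, signal over background takes the place of depth. Across probe sets, which are not independent replicates, the log2 values of plastic and Myogel had r = 0.98 from the median signal upwards and r = 0.48 below it.

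All members were named with every probe set. In each pathway list the genes named by rule were at most 3 a direction that passed FC 1.5 and had a signal not below the median, or otherwise the gene of such signal with the largest log2 FC in size, and ERBB4, EGF, NRG2, NRG3 and NRG4. The members and lists were chosen with earlier results of these data known. Genes of a like pattern were not sought, since 2 arrays give 1 ratio per gene. Alternatives were quantile normalization, loess centring (span 0.3), median centring, an offset of 50, leaving out _x_at, _s_at and _a_at probe sets, limits of FC 1.2 and FC 2, a difference of 100 units, leaving out probe sets with both values below the median, and the mean over probe sets. No test was made. The analysis used pandas 2.3.3 and numpy 2.4.6 under Python 3.11.15, statsmodels 0.14.6 for loess and matplotlib 3.10.9 for plots, and was tested on simulated data.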

Additional observations from a re-analysis of the deposited data

How the results depend on the processing

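Of the 6 member probe sets higher and the 6 lower on Myogel with FC 1.5 or more, an offset of 50 left 0 and 2, a difference of 100 linear units 0 and 1, and leaving out low probe sets 0 and 2. The shares over all probe sets, 13.8% higher and 24.2% lower, also fell. In the same order they became 2.27% and 4.05%, 0.65% and 0.916%, and 5.52% and 10.3%. FC 2 left 2 higher and 4 lower, beside 9.31% and 15.3% of all probe sets. When probe sets ending in _x_at, _s_at or _a_at were left out, 4 were higher and 2 lower. Among all remaining probe sets the shares were 15.1% and 26.4%. By the brightest probe set, the count of higher genes was 1 with FC 1.2 and 2 with the mean over probe sets, in place of 0. The count of lower genes, 1 as reported, was 0 after quantile normalization, loess centring and median centring, with an offset of 50, FC 2, a difference of 100 units and without low probe sets, and 2 with the mean over probe sets. The 5 pathway genes past FC 1.5 became 0 with an offset of 50 or a difference of 100 units, 21 with FC 1.2, 3 with FC 2 and 19 with the mean over probe sets. With FC 1.2, 18.1% of all genes were higher and 30.8% lower. Under the other alternatives the shares of all genes were not computed, so that these gene counts say nothing particular to the family or its pathway. The mean over probe sets takes in dim probe sets, for EREG, ERBB3 and ERBB2 also 1 at the floor, which sets the size of their value, and gave log2 FCs of 1.97 for EREG, 0.77 for ERBB3, -0.38 for TGFA and -2.12 for ERBB2. The median log2 FC of the member genes moved by less than the SD of these genes under each alternative run for it. The causes of the other changes were not tested. Quantile normalization and loess centring gave 18.2% higher and 18.2% lower among all probe sets. Signal limits every ratio below the median, where 24.2% of all probe sets were higher and 40.5% lower with FC 1.5 or more, and 1 array per surface leaves no measure of the spread between wells.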
